A study of Homo sapiens with 18 samples.

Results

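The CEACAM family was read by 6 array probes for 4 genes, CEACAM1, CEACAM5, CEACAM6 and CEACAM7. The members were the probes whose gene symbol in the platform annotation was one of these 4 names, out of 47323 probes and 20046 different symbols in the expression table. Carcinoembryonic antigen related cell adhesion molecules are immunoglobulin-type glycoproteins of the cell surface that bind each other and several bacteria. CEACAM1 spans the membrane, and its long form carries inhibitory tyrosine motifs in its tail. CEACAM5, the classical carcinoembryonic antigen, and CEACAM6 and CEACAM7 are held on the outer face by a glycosylphosphatidylinositol (GPI) anchor. In normal colon all 4 are known from the apical surface of mature colonocytes, CEACAM5 and CEACAM6 are often raised in colorectal tumours, and CEACAM7 is often reduced there.

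HT29 and Colo-205, human colorectal cancer cell lines that both carry an activating BRAF mutation, were grown as colonies in Matrigel, a basement membrane gel. From culture day 5 they received 3 µM PLX4720, an inhibitor of mutant BRAF, or its solvent DMSO. HT29 was sampled on days 1, 3 and 8 as biological duplicates, 2 arrays for each of 6 groups, and Colo-205 on days 1, 3 and 10 with 1 array for each of 6 groups, 18 arrays in all. Since day 1 comes before culture day 5, days are read here as days of treatment. DMSO cultures aged alongside the treated ones, so a DMSO difference between days is a difference in culture age.

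The arrays were alike in quality. Between 18144 and 19608 probes per array were detected (detection p under 0.01), and the log2 values of duplicates correlated at 0.984 to 0.989 across probes. Of 10 colon epithelial markers, 9 were above background on every HT29 array and 8 on every Colo-205 array. Of 6 leukocyte markers 4, among them PTPRC and ELANE, were above background on no array, and so were 2 of 3 endothelial markers. The other 2 leukocyte markers, CD14 and CD68, were above background on all 18 arrays. Each line was on its own BeadChip, so that line and chip cannot be told apart. The number of arrays limits the precision throughout.

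All 4 genes lie on chromosome 19 (GRCh38.p14, RefSeq). CEACAM7 at chr19:41673303-41688270 on the minus strand, CEACAM5 at chr19:41708626-41730519 and CEACAM6 at chr19:41755530-41772211 on the plus strand are neighbours, with 20355 and 25010 bases between them. CEACAM1, at chr19:42507306-42528481 on the minus strand, lies a further 735094 bases away. The platform annotation pairs the CEACAM1 probes ILMN_1716815 and ILMN_2371724 with one RefSeq transcript (NM_001024912) and ILMN_1664330 with another (NM_001712). CEACAM5 was read by ILMN_1670959, CEACAM6 by ILMN_1712522 and CEACAM7 by ILMN_1813957. Probe sequences were not used here, so whether a probe also binds RNA of a close relative, and which splice form it reads, was not tested.

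The promoters are shown because the genes are close relatives whose treatment differences were not alike. Each line gives 100 bases before and 50 after the RefSeq start, 5′ to 3′ along the gene (CEACAM1 chr19:42528432-42528581, CEACAM5 chr19:41708526-41708675, CEACAM6 chr19:41755430-41755579, CEACAM7 chr19:41688221-41688370), with the E-box CACGTG in capitals.
CEACAM1: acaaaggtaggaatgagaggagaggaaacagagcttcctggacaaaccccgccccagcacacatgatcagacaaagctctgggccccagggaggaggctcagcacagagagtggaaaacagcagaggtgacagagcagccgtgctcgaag
CEACAM5: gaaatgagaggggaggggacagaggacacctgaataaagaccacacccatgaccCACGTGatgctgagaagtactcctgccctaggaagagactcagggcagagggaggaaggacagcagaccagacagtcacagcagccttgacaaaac
CEACAM6: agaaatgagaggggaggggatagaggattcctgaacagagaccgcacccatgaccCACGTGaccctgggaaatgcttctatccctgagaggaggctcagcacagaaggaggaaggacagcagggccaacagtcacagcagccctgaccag
CEACAM7: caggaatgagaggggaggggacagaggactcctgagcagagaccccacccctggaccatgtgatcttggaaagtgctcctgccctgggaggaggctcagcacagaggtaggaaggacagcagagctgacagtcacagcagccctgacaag
Over the 300 bases that RefSeq's promoter table holds for each gene, aligned identity was 81.4% between CEACAM5 and CEACAM7, 80.5% between CEACAM6 and CEACAM7 and 74.7% between CEACAM5 and CEACAM6. CEACAM1 was 65.6% identical to CEACAM5, 68.2% to CEACAM6 and 71.2% to CEACAM7. CACGTG, searched on both strands, starts 46 bases before the CEACAM5 start and 45 before the CEACAM6 start, and 7.43% of 27305 promoters of this length hold it. At nearly the same place CEACAM1 (41 bases before its start) and CEACAM7 (44 bases before) hold CATGTG in one of its orientations, which 11.2% of promoters hold. The AP-1 letters TGANTCA (7.76% of promoters) are in none of the 4 windows. GGGCGG, the GC box (44.6% of promoters), is in the CEACAM1 and CEACAM6 windows, and TATAAA (12% of promoters) in that of CEACAM6, with no overlap among matches. In human cells the CEACAM5 promoter is known to bind upstream stimulatory factors at its E-box and Sp-type factors nearby. These matches describe letters and show no binding in these cultures.

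CEACAM1 was lower with PLX4720 in HT29. The 3 probes were lower by 0.81, 0.88 and 0.79 on the log2 scale as a mean over the 3 days, that is 1.75-, 1.84- and 1.73-fold, while CEACAM5 (0.16 ± 0.13), CEACAM6 (0.28 ± 0.23) and CEACAM7 (-0.21 ± 0.11) did not pass the test in that mean (limma adjusted p = 0.437, 0.442 and 0.206). So 3 of 6 probes fell and none rose, where 22.4% of all probes tested were called and 10.9% fell. Values are deposited probe intensities where given as whole levels. They include a background of about 99.0 to 103 units per HT29 array and 90.3 to 93.2 per Colo-205 array, and levels of different probes are not compared. Fold changes are differences of log2 intensities after background correction and quantile normalisation, tested with limma over all 23495 probes above background on at least 2 HT29 arrays and adjusted by Benjamini-Hochberg, with a threshold of 0.05. CEACAM7 was above background on 2 HT29 arrays only, and so entered the fit through the group in which it was high, DMSO day 8. It had to differ wherever that group was compared, so its calls there are given as description, with bounds and no p. In bulk RNA, fewer cells expressing a gene and less RNA per cell cannot be told apart.

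Probe ILMN_1716815 gave 2803 and 3052 in the day 1 DMSO arrays against 1684 and 1899 with PLX4720, 3633 and 4044 against 2552 and 2874 on day 3, and 4311 and 4595 against 1826 and 2003 on day 8. The treated arrays were below the DMSO arrays on each day without overlap, and the widest gap was on day 8, when the DMSO level was at its highest. The differences were -0.69 ± 0.13 (SE, limma adjusted p = 0.00964), -0.50 ± 0.13 (adjusted p = 0.0501) and -1.25 ± 0.13 (adjusted p = 0.000517) for days 1, 3 and 8. Day 3 thus lay at the threshold and did not pass it. The day 1 call ended without replicate 2 of DMSO day 1 or of PLX4720 day 1 (adjusted p = 0.0542 and 0.0607).

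Probe ILMN_2371724 gave 1596 and 1656 in the DMSO arrays against 886 and 1025 on day 1, 2303 and 2336 against 1464 and 1653 on day 3, and 2537 and 2869 against 1029 and 1270.4 on day 8. Again no treated array reached a DMSO array of its day. The differences were -0.77 ± 0.15 (limma adjusted p = 0.00871), -0.57 ± 0.15 (adjusted p = 0.0408) and -1.30 ± 0.15 (adjusted p = 0.000635). The day 1 call ended without PLX4720 day 1 replicate 2 (adjusted p = 0.0578), and the day 3 call when any of 8 single arrays was left out (adjusted p up to 0.193).

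The dim probe ILMN_1664330, the one paired with the other CEACAM1 transcript, gave 166 and 172 against 116 and 139 on day 1, 174 and 208 against 153 and 156 on day 3, and 168 and 173 against 144 and 149.9 on day 8. The groups did not overlap, and 1 treated array of day 1 was not above background. Its differences ran the other way in size, from -1.15 ± 0.25 on day 1 (limma adjusted p = 0.0150) through -0.76 ± 0.25 (adjusted p = 0.0879) to -0.47 ± 0.25 on day 8 (adjusted p = 0.298). The day 1 call ended without replicate 1 of DMSO day 1 or of PLX4720 day 1 (adjusted p = 0.0848 and 0.0727). Under DMSO it was not brighter on day 8 than on day 1, at -0.25 ± 0.25, whereas both bright probes were. The treatment difference on day 8 minus that on day 1 was 0.69 for this probe, with a 95% interval of -0.10 to 1.48, and -0.56 and -0.54 for the bright probes, and none of these 3 passed the test. Over the mean of days the 3 CEACAM1 probes did not differ detectably in their response, by 0.02 to 0.08 on the log2 scale, with exact permutation p between 0.185 and 0.954. This closeness moved with the background correction: the dim probe's mean difference ran from -0.80 to -0.34 over the settings. Without background correction and with the authors' processed values, the bright probes were lower than it by -0.43 to -0.50, with adjusted exact permutation p from 0.0694 to 0.0833.

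**Figure D1:**
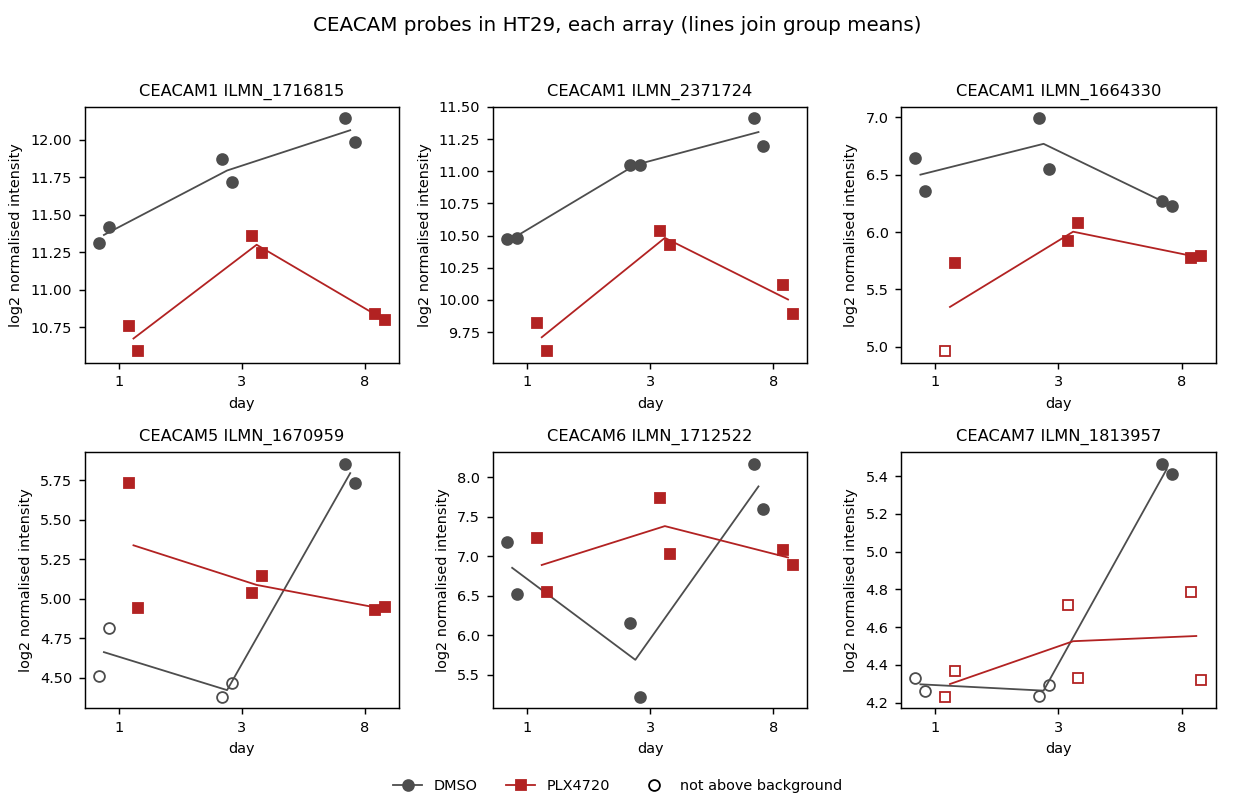
Log2 normalised intensity (y axis, a separate range for each panel) of the 6 CEACAM probes on days 1, 3 and 8 in HT29, 1 point per array, with lines joining the means of 2 arrays and open points for arrays not above background. In the 3 CEACAM1 panels the PLX4720 squares sit below the DMSO circles on each day, whereas for CEACAM5 and CEACAM6 the order on day 3 is the opposite of that on day 8.

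Several CEACAM probes rose with culture age in the DMSO arm of HT29. Between days 1 and 8, 4 of 6 member probes were called higher and none lower, 3 of the 5 other than CEACAM7, where 32.9% of all probes tested were called in either direction and 15.5% rose. The bright CEACAM1 probes rose by 0.70 ± 0.13 and 0.83 ± 0.15 (limma adjusted p = 0.00370 and 0.00228). CEACAM5 was not above background in DMSO on day 1 (102 and 113) or day 3 (101 and 103) and reached 143 and 149 on day 8, at least 2.17-fold above day 1 (adjusted p = 0.00487). These bounds set the brighter mean against the dimmest signal that counts as detected on each dim array, or the probe's own signal where that is higher. Like all bounds given here, they hold only on the scale of the main background correction. Over the other settings the fitted log2 rise of CEACAM5 from day 1 to day 8 ran from 0.38 to 1.29. That of CEACAM7 ran from 0.42 to 1.24. CEACAM7 gave 94.05 and 96.0 on day 1, 92.25 and 95.6 on day 3, and 130.1 and 133 on day 8, the only 2 arrays of 18 on which it was above background. That was at least 1.84-fold above day 1 and at least 1.92-fold above day 3.

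CEACAM6 took a different course in DMSO, with 176 and 214 on day 1, 121 and 154 on day 3 and 296 and 403 on day 8. The day 3 arrays were the lowest and the day 8 arrays the highest, with no overlap among the 3 days. It rose 4.57-fold between days 3 and 8 (2.19 ± 0.39, limma adjusted p = 0.00400). Against day 1 the day 8 difference was 1.03 ± 0.39 and the day 3 difference -1.16 ± 0.39, neither past the threshold (adjusted p = 0.0747 and 0.279). The first of these passed in 6 of 22 alternatives, among them no background correction (adjusted p = 0.00486) and the authors' processed values (adjusted p = 0.00346). From day 3 to day 8, 3 of 6 member probes were called higher and none lower, CEACAM5 and CEACAM6 of the 5 other than CEACAM7 and CEACAM7 itself, where 25.8% of all probes were called and 12.4% rose. From day 1 to day 3, 0 of 6 passed limma's test (3 of 6 had an unadjusted p under 0.05), against 0.979% of all probes called.

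With PLX4720 no member probe passed the test between days 1 and 8. In that comparison 0 of 6 member probes passed limma's test and 0 of 6 had an unadjusted p under 0.05, where 9.7% of all probes were called. The upper ends of the 95% intervals were 0.45 and 0.62 for the bright CEACAM1 probes, 0.99 for the dim one, 0.12 for CEACAM5 and 0.98 for CEACAM6. CEACAM7 was above background on neither day. Between days 3 and 8, 0 of 6 passed, 2 of 6 with an unadjusted p under 0.05, both CEACAM1, at -0.48 each (0.724% of all probes called). Between days 1 and 3, 1 of 6 rose, CEACAM1 probe ILMN_2371724, by 0.77 ± 0.15 (adjusted p = 0.0328), where 1.78% of all probes were called and 1.34% rose. That call ended when any of 8 single arrays was left out, with adjusted p up to 0.199.

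By group means, CEACAM5 and CEACAM6 were above their DMSO level or near it on days 1 and 3, and all 3 GPI-anchored members were below it on day 8. On day 1, 3 of 6 member probes fell with PLX4720 and none rose, all 3 of CEACAM1, where 14.2% of all probes were called and 6.79% fell. CEACAM5 gave 116 and 140.3 with PLX4720 against 102 and 113 with DMSO, higher in both treated arrays and above background only in them. The bound was at least 1.58-fold, and the adjusted p of 0.0860 did not pass. CEACAM6 overlapped on day 1, with 180.3 and 239 against 176 and 214, a difference of 0.04 ± 0.39. CEACAM7 was above background in neither group on days 1 and 3.

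On day 3, 1 of 6 probes rose and 1 fell, where 9.72% of all probes were called, 5.26% higher and 4.46% lower. The probe that fell was the CEACAM1 probe ILMN_2371724. The probe that rose was CEACAM6, with 219.5 and 320.4 under PLX4720 against 121 and 154 under DMSO. Both treated arrays were above both DMSO arrays, a difference of 1.69 ± 0.39 or 3.23-fold (limma adjusted p = 0.0285). In each of the 6 HT29 groups CEACAM6 was brighter in replicate 1 than in replicate 2. Of all probes tested, 5.64% kept one order of the duplicates throughout. The call ended without either PLX4720 day 3 array (adjusted p = 0.163 and 0.0569) and without DMSO day 3 replicate 2 (adjusted p = 0.152). CEACAM5 gave 121 in both treated arrays against 101 and 103, at least 1.50-fold higher without passing the test (adjusted p = 0.107).

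On day 8, 4 of 6 probes were called lower with PLX4720 and none higher, 3 of the 5 other than CEACAM7, where 10% of all probes were called and 5.28% fell. Besides the bright CEACAM1 probes these were CEACAM5 and CEACAM7. CEACAM5 gave 115 and 119 against 143 and 149, with no overlap, a difference of -0.86 ± 0.23 (limma adjusted p = 0.0477). That value lay near the threshold, and 17 of 22 alternatives ended the call, with adjusted p up to 0.173. CEACAM7 gave 96.6 and 115 against 130.1 and 133 and was above background in DMSO only, at least 1.73-fold lower with PLX4720. CEACAM6 gave 212 and 242.5 against 296 and 403, with no overlap and a difference of -0.90 ± 0.39 that did not pass (adjusted p = 0.203). It passed without background correction (-0.61) and with the authors' processed values (-0.60, adjusted p = 0.0243 for both), and with the replicate number as a block (adjusted p = 0.0168).

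**Figure D2:**
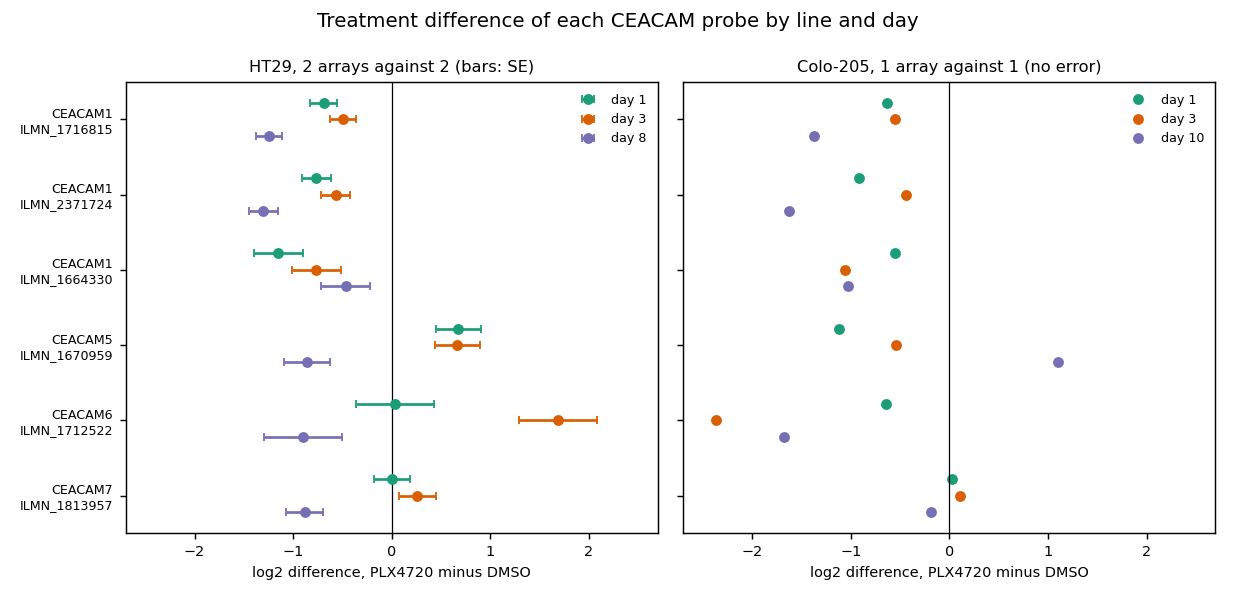
Log2 difference, PLX4720 minus DMSO (x axis), of each CEACAM probe on each day, for HT29 with bars of 1 SE (left) and for Colo-205 as single-array differences with no error (right). The CEACAM1 points lie left of 0 in both lines on every day, while in HT29 CEACAM5 and CEACAM6 lie at or right of 0 on days 1 and 3 and left of 0 on day 8.

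The change of the treatment difference between days was itself tested. From day 3 to day 8 the difference was called as moving downward for 3 of 6 probes, 2 of the 5 other than CEACAM7, where 4.09% of all probes were called and 2.48% moved downward. CEACAM5 moved by -1.52 ± 0.33 (limma adjusted p = 0.0350) and CEACAM6 by -2.59 ± 0.56 (adjusted p = 0.0359). For CEACAM7 the DMSO day 8 group was the only one of the 4 above background, so its call is that group set against background. Apart from runs with an array left out, the CEACAM7 call ended in 7 alternatives. From day 1 to day 8 it moved downward for 1 of 6, CEACAM5 by -1.53 ± 0.33 (adjusted p = 0.020), where 9.27% of all probes were called and 5.09% moved downward. From day 1 to day 3, 0 of 6 passed (1 of 6 with an unadjusted p under 0.05, CEACAM6 at 1.66 ± 0.56), against 0.0383% of all probes. The DMSO level of CEACAM5 on days 1 and 3 is only a bound, so the size of its differences is uncertain. The CEACAM5 and CEACAM6 calls from day 3 to day 8 rest on adjusted p values near the threshold, and each ended when single arrays were left out, 8 of 12 arrays for CEACAM5 and 7 of 12 for CEACAM6. The CEACAM5 call from day 1 to day 8 ended without DMSO day 1 replicate 1 or either PLX4720 day 8 array (adjusted p from 0.0601 to 0.0667).

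Members were also compared with each other directly, by the difference of their treatment differences in HT29 over the 3 days. Of 15 pairs of probes, 6 passed a two-sided exact permutation test of treatment labels within days, adjusted over the 15. Each bright CEACAM1 probe was lower relative to CEACAM5 (by -0.97 and -1.04) and to CEACAM6 (-1.09 and -1.15). The other 2 were those of the bright probes with CEACAM7, and nothing is read from pairs with CEACAM7, which was not above background in either arm on days 1 and 3. With CEACAM5 undetected in DMSO on those days, the size of its differences is uncertain. For all 6 the exact permutation p was 0.00926, the smallest that 216 labelings allow, and the adjusted p 0.0231. The dim CEACAM1 probe gave differences of -0.96 and -1.07 against CEACAM5 and CEACAM6, with exact permutation p of 0.0648 and 0.102. CEACAM5 and CEACAM6 were not told apart, with a difference of -0.11 (exact permutation p = 0.824). All these gaps are means over days and were uneven. On day 8 the treatment differences were -1.25 and -1.30 for the bright CEACAM1 probes, -0.86 for CEACAM5 and -0.90 for CEACAM6. With day 3 left out, the gaps of the bright probes to CEACAM6 were -0.54 and -0.60.

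In Colo-205 CEACAM1 was again lower with PLX4720 on each of the 3 days, with 1 array per group. Probe ILMN_1716815 gave 781 with DMSO against 565 on day 1, 876 against 617 on day 3 and 1632 against 704 on day 10. ILMN_2371724 gave 427 against 273, 427 against 341 and 995 against 392, and ILMN_1664330 gave 124 against 109, 142 against 111 and 151 against 116. With days as the only replicates the differences were -0.85 ± 0.23, -1.0 ± 0.26 and -0.88 ± 0.19, and limma's adjusted p of 0.164, 0.160 and 0.114 did not pass. In this comparison 0 of 5 member probes tested were called, 4 of 5 with an unadjusted p under 0.05, where 0.934% of all 20555 probes were called. CEACAM7 was above background on 0 of 6 Colo-205 arrays, with 72.2 to 92.0, and could not be tested there. The summed normalised level of the 6 leukocyte markers ran from 2876 to 4173 over the 3 DMSO arrays. Over the 3 treated arrays it ran from 4475 to 5382. CD68, at a mean log2 of 11.9 against 6.64 for CD14, made up most of this sum. The other 4 markers were above background on no Colo-205 array. The part of this sum in the CEACAM values was not tested.

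CEACAM6 gave 198 against 159 on day 1, 168 against 90.7 on day 3 and 589.5 against 248 on day 10. The treated array was the lower on each day, and on day 3 it was not above background, at least 4.66-fold lower. With that array at its measured value, the difference over days was -1.56 ± 0.33 (limma adjusted p = 0.106). It passed with a larger normexp offset and with no background correction (adjusted p = 0.0257 and 0.0464).

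CEACAM5 differed in direction between days. It gave 124 against 95.6 on day 1 and 103 against 89.3 on day 3, both treated arrays not above background, but 192 against 333 on day 10, the only day on which the treated array was higher. Over days its difference was -0.19 ± 0.42. Both treatments were highest on day 10, and with PLX4720 the day 10 level was at least 13.1-fold above day 1. These are single arrays without a replicate check.

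**Figure D3:**
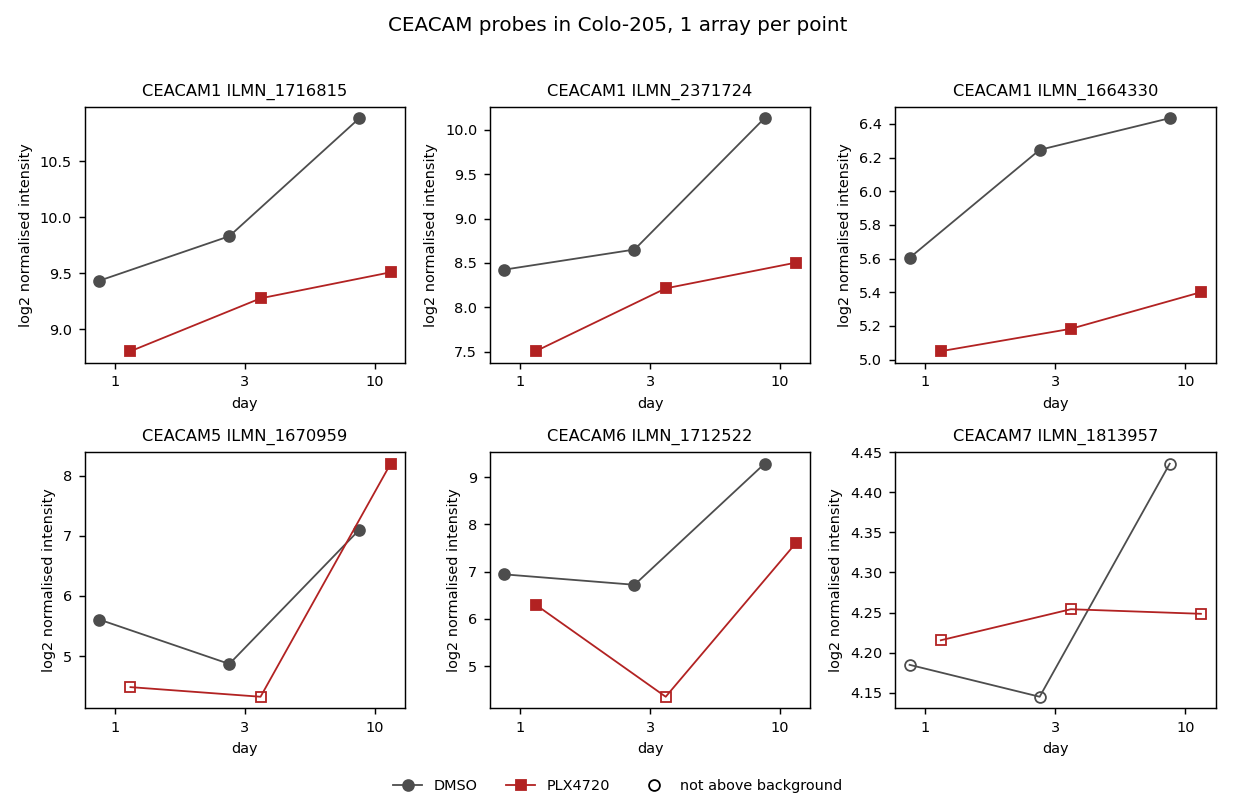
Log2 normalised intensity (y axis, a separate range for each panel) of the 6 CEACAM probes in Colo-205 on days 1, 3 and 10, 1 array per point, with open points for arrays not above background. DMSO lies above PLX4720 in the CEACAM1 and CEACAM6 panels on all days, CEACAM5 crosses on day 10, and CEACAM7 stays within a narrow range with no array above background.

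Between lines, DMSO cultures were compared at the shared days 1 and 3. Of 6 member probes 3 were lower in Colo-205 and 1 higher, where 38.4% of all probes were called, 19.2% in each direction. The CEACAM1 probes were lower by 3.86-, 4.67- and 1.63-fold (-1.95 ± 0.12, -2.22 ± 0.13 and -0.71 ± 0.21, limma adjusted p = 1.59e-06, 1.10e-06 and 0.0263). CEACAM5 was above background in both Colo-205 DMSO arrays and in none of the 4 HT29 arrays, at least 1.57-fold higher in Colo-205 (adjusted p = 0.0207). On day 3 alone the CEACAM5 difference did not pass (adjusted p = 0.291), nor from the authors' processed values (adjusted p = 0.342), nor without HT29 DMSO day 1 replicate 1 (adjusted p = 0.0543). The dim CEACAM1 probe did not pass without replicate 1 of DMSO day 1 or day 3 (adjusted p = 0.0664 and 0.0696). CEACAM6 differed by 0.56 ± 0.34 (adjusted p = 0.234), and CEACAM7 was below background in both lines. The spread in this fit came from the HT29 duplicates alone, and the single Colo-205 arrays were assumed to vary like them.

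For CEACAM1 the treatment differences of the lines on days 1 and 3 were not told apart, with 95% intervals for Colo-205 minus HT29 of -0.38 to 0.38, -0.42 to 0.39 and -0.53 to 0.83. For CEACAM5 and CEACAM6 it was called lower in Colo-205 than in HT29, with fitted values of -1.51 ± 0.28 (limma adjusted p = 0.0226) and -2.37 ± 0.48 (adjusted p = 0.0311), 2 of 6 probes where 3.35% of all probes were called and 2.09% were lower. For CEACAM5 an undetected group stands on each side, so the fitted value is no exact size. In HT29 it was at least 1.58-fold and 1.50-fold higher with PLX4720 on days 1 and 3, and in Colo-205 at least 2.18-fold and 1.29-fold lower. CEACAM6 on day 3 was at least 4.66-fold lower in Colo-205 and 3.23-fold higher in HT29, and on day 1 alone the line difference was -0.68 (adjusted p = 0.772). With 1 treatment effect per line over all its days, neither passed (adjusted p = 0.829 for CEACAM5 and 0.174 for CEACAM6). Leaving out 1 HT29 array ended the CEACAM5 call in 1 of 8 cases (PLX4720 day 3 replicate 2, adjusted p = 0.0549). It ended the CEACAM6 call in 3 of 8, those of PLX4720 day 1 replicate 1, PLX4720 day 3 replicate 1 and DMSO day 1 replicate 2 (adjusted p from 0.0584 to 0.0631). Both called differences compare 4 HT29 groups with 4 single Colo-205 arrays.

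The size of the differences of the dim probes moved with the background correction. For ILMN_1716815 the day 8 difference was between -1.26 and -1.20 under all alternative treatments of background, normalisation and filter. For CEACAM5 on day 8 it ran from -0.91 to -0.29, for CEACAM7 from -0.94 to -0.30, and for CEACAM6 on day 3 from 0.89 to 1.82. The CEACAM5 difference ran from 0.22 to 0.74 on day 1 and from 0.22 to 0.73 on day 3. Directions were kept in these cases. The smallest of these differences for CEACAM5 on days 1 and 3 and for CEACAM7 on day 8 lie below the bounds given above, which hold under the main correction only. CEACAM6 on day 3 passed under each of those settings, while CEACAM5 on day 8 passed only under some.

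**Figure D4:**
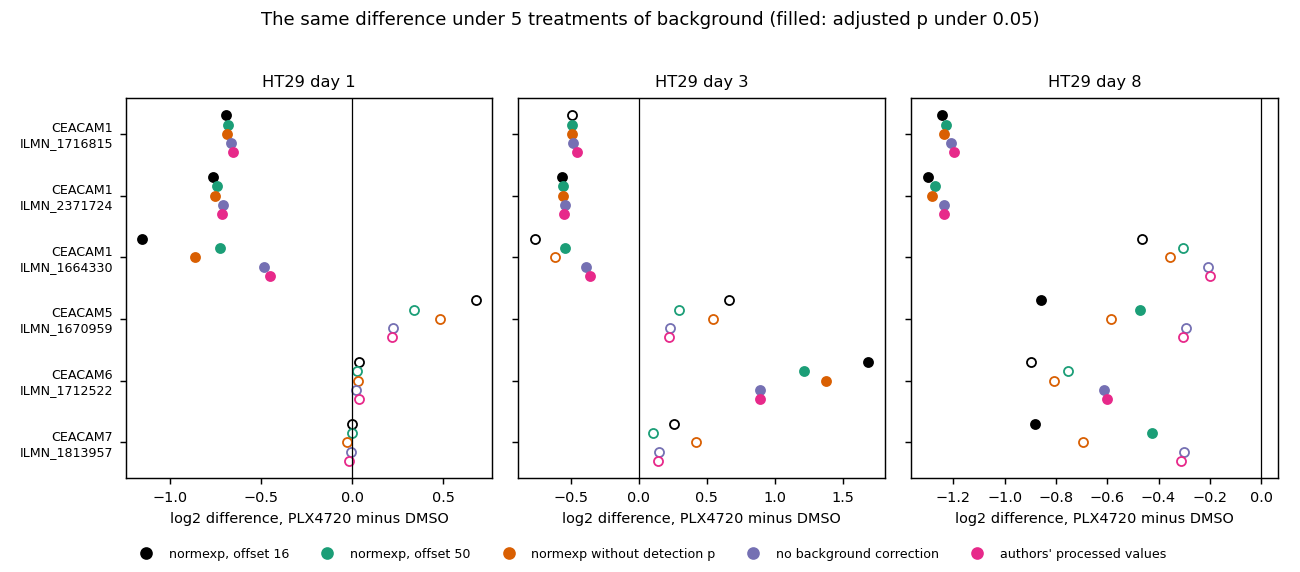
Log2 difference, PLX4720 minus DMSO, of each CEACAM probe in HT29 on days 1, 3 and 8 (x axis, a separate range for each panel) under 5 treatments of background, filled where the limma adjusted p was under 0.05. Points of the bright CEACAM1 probes nearly coincide, whereas on day 8 those of CEACAM5, CEACAM6 and CEACAM7 lie nearest to 0 without background correction and with the authors' processed values.

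Genes around the family were counted from lists, by the brightest probe of each gene, in the mean of the HT29 days, where 27.8% of 12675 genes were called. Of 17 other named members of the carcinoembryonic antigen family, 12 were above background on no HT29 array and 2 entered the test, CEACAM4 at -0.28 ± 0.14 and PSG3 at -0.22 ± 0.23, and neither passed (limma adjusted p = 0.200 and 0.559). Of 29 GPI anchor genes 8 rose and 2 fell, with a median of 0.16. PIGZ, a mannosyltransferase of the anchor pathway, fell by 1.51. It was above background on 8 of 12 HT29 arrays, so the size of its fall is uncertain. PGAP3, which remodels the anchor's lipid, and PIGN, which modifies its first mannose, rose by 0.87 each. Of 10 partners of the CEACAM1 tail 2 fell, the adaptor SHC1 by 0.45 and ANXA2 by 0.29, while the phosphatase PTPN11 at -0.21 ± 0.08 did not pass.

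Of 7 genes for regulators known at CEACAM promoters, 1 fell, SMAD3, which transmits TGF-beta signals, by 0.71 ± 0.12 (limma adjusted p = 0.00225). The E-box factors USF1 and USF2 were at 0.03 ± 0.11 and -0.17 ± 0.12 and did not pass. Of 11 genes that report ERK output, 10 fell and none rose, with a median of -0.98. DUSP6, an ERK phosphatase, fell by 2.36 and ETV5, an ETS transcription factor, fell by 1.69. In Colo-205, 6 of 12 of these genes fell, where 1.16% of all genes were called.

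Of 22 surface colonocyte genes, 5 were above background on no HT29 array. Of the 16 tested, 9 rose and 1, the channel gene BEST4, fell, with a median of 0.49 against -0.0048 for all genes. By day 7, 7 and 4 rose on days 1, 3 and 8, with medians of 0.60, 0.47 and 0.14. Of all genes, 17.8%, 12.1% and 12.6% were called on those days. MUC13, a transmembrane mucin, rose by 1.36 ± 0.09, the brush border protein gene VIL1 by 0.69 ± 0.07 and the galectin gene LGALS4 by 0.75 ± 0.08. Keratin gene KRT20, another marker of mature colonocytes, was at 0.03 ± 0.08 and did not pass.

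Of 5 stromal markers 3 were tested and 2 rose with PLX4720, ACTA2 by 0.85 and LUM by 0.73. The summed normalised level of the 5 ran from 212 to 354 over 6 DMSO arrays and from 373 to 521 over 6 treated arrays. ACTA2 made up most of this sum, at a mean log2 of 7.92 in HT29. COL1A1, COL1A2, DCN and LUM had means of 4.50 to 4.63. The summed level of the 6 leukocyte markers ran from 631 to 1546.5 and from 863 to 1474, and CD14 and CD68 did not pass. COL1A1 and COL1A2 were each above background on 1 of 12 HT29 arrays, DCN on 2 and LUM on 3. LUM thus entered the test through few arrays, and its rise is given as description. Of 7 reference genes 1 rose and 3 fell, GAPDH by 0.54, HPRT1 by 0.46 and ACTB by 0.28. The part of these genes in the CEACAM values was not tested.

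Across the 12 HT29 arrays the genes whose log2 levels followed each member most closely were ranked among 12674 other genes. Arrays share groups and normalisation, so these are descriptions. For CEACAM1 (ILMN_1716815) they were NCOA7, LY6E and NFE2L3, with Pearson r of 0.96 each. For CEACAM5 they were LAMB3, WDFY1 and PHF3 (0.94, 0.91 and 0.89), for CEACAM6 PAXIP1-AS2, PPIL6 and AFTPH (0.88, 0.86 and 0.85), and for CEACAM7 PNKD, PNCK and MPZL2 (0.95 each). PAXIP1-AS2 and PPIL6 were dim, with log2 group means of 4.38 to 5.60 and 4.375 to 5.42. Those of CEACAM5, not above background in DMSO on days 1 and 3, were 4.42 to 5.80. Signal near background thus limits these correlations. Among members, CEACAM5 and CEACAM6 gave 0.74, CEACAM6 and CEACAM7 0.68, CEACAM5 and CEACAM7 0.67 and CEACAM1 and CEACAM7 0.54. CEACAM7 was above background in DMSO day 8 only, so its correlations set that group against background and nothing is read from them. CEACAM1 gave 0.10 with CEACAM5 and 0.09 with CEACAM6.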

How the data were processed

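Total RNA was hybridised to Illumina BeadChips, and the deposited table held probe intensity and a detection p-value per array. How the scanner software made the p-values is not stated by header or label. The header of 1 HT29 intensity column (PLX4720, day 8, replicate 1) adds the word mean, and that column was used like the others. A second table of the authors' processed intensity values, linear and with method not stated, served as an alternative. Background was corrected with limma's normexp using detection p-values (offset 16), followed by quantile normalisation over 18 arrays and log2, with limma 3.58.1 in R 4.3.3, and 4 probes lacking a value on some array were dropped. Probes with detection p under 0.01 on at least 2 arrays of a fit were kept. HT29 was fitted as 6 group means, Colo-205 with day as a block, and the line comparisons as 12 group means over 18 arrays. P-values are two-sided and were adjusted over all probes of a fit. Fits were tested on simulated data. Promoters were aligned with Biopython 1.88.

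Of the 47323 probes, 30113 had 1 gene symbol, 8 several and 17202 none listed. Named were the 4 members with all their probes, the 3 genes most correlated with each, and up to 3 genes with the smallest adjusted p per list, with others named from detection. USF1, USF2, KRT20, BEST4 and the stromal and leukocyte markers outside the top 3 were named after their values were seen. Members and lists were chosen with earlier results of these data known. Probe intensities carry no read depth. Alternatives covered background, normalisation, filter, probe choice, replicate block and left-out arrays. The numbers of HT29 replicates were not used to pair the groups in the main fits. Over all probes, deviations of same-numbered arrays correlated at -0.015 to 0.104, with 1 of 15 over 0.1. This does not settle it for single probes such as CEACAM6, brighter in replicate 1 in 6 of 6 groups.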

Additional observations from a re-analysis of the deposited data

Results flagged for a closer look

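These results differed between days or between lines under the same contrast, by limma's test of the difference itself. In HT29 the PLX4720 minus DMSO difference of CEACAM5 was lower on day 8 than on day 3 by -1.52 and than on day 1 by -1.53 on the log2 scale, that of CEACAM6 was lower on day 8 than on day 3 by -2.59, and that of CEACAM7 by -1.15. On days 1 and 3 the difference was lower in Colo-205 than in HT29 by -1.51 for CEACAM5 and by -2.37 for CEACAM6. These are fitted values, not exact sizes, wherever a group was not above background: CEACAM5 in HT29 DMSO on days 1 and 3 and in Colo-205 PLX4720 on days 1 and 3, CEACAM6 in Colo-205 PLX4720 on day 3, and CEACAM7 in every group but HT29 DMSO day 8, through which it entered the test. Apart from runs with an array left out, the day 8 minus day 3 call ended in 7 alternatives for CEACAM7. For CEACAM5 and CEACAM6 it ended in 1 each. Groups of 1 or 2 arrays were too small to look for single outlying arrays.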

How the results depend on the processing

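Of 1957 recomputed member tests, 1799 kept their side of the threshold, 102 lost a call and 56 gained one. Among the 1799, 50 uncalled values changed sign, while 0 called values did. Of 30 calls, 14 held in every alternative run: the bright CEACAM1 probes on day 8, all 3 CEACAM1 probes in the mean of days, all 7 DMSO calls of day 8 against days 1 and 3, and the bright CEACAM1 probes between lines. The CEACAM7 calls among these rest on the group through which it entered the fit. They were refitted in 10 leave-one-out runs against 12 for other HT29 calls, since CEACAM7 left the fit without either DMSO day 8 array. That they held was thus not tested where it mattered most. Counts below are member probes called.

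With PLX4720 minus DMSO on day 3 (2 called), 4 passed with offset 50, with no background correction and with the authors' processed values, and 1 with no between-array normalisation, with no filter and with detection p under 0.05. On day 8 (4 called), 2 passed with normexp without detection p. Without background correction and with the authors' values, CEACAM5 and CEACAM7 lost their day 8 call and CEACAM6 gained one. For day 8 minus day 1 of the treatment difference (1 called), 3 passed without background correction and with the authors' values. For day 8 minus day 3 (3 called), 0 passed with no filter. With offset 50, without background correction and with the authors' values, CEACAM7 lost this call and both bright CEACAM1 probes gained it. For DMSO day 3 minus day 1 (0 called), 1 passed with offset 50, without background correction and with the authors' values. For PLX4720 day 3 minus day 1 (1 called), 2 passed with offset 50, without detection p, without background correction and with the authors' values, and 0 without between-array normalisation or with detection p under 0.05. For PLX4720 day 8 minus day 3 (0 called), 2 passed without background correction and with the authors' values. In Colo-205 (0 called), 1 passed with offset 50 and without background correction. With the brightest probe per gene, 1 gene was called on day 1 and in the mean of days, 2 for day 8 minus day 1 of the treatment difference and 2 between lines in DMSO. Between lines, day 3 alone gave 2 in DMSO, and for the treatment difference day 1 alone gave 0, day 3 alone 1 and 1 effect per line 0. With any day left out 0 probe pairs passed, since too few labelings then remain for the exact permutation test to reach the threshold.

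Replicate numbers were not used to pair the groups in the main fits, and the CEACAM6 calls depend on that choice. With the replicate number as a block, 1 member passed for DMSO day 3 minus day 1, CEACAM6 (-1.16, limma adjusted p = 0.0244), CEACAM6 also passed on day 8 (adjusted p = 0.0168), and CEACAM5 on day 8 did not (adjusted p = 0.0619). Leaving out single arrays gave 2 to 3 calls on day 1, 0 to 4 on day 3, 2 to 4 on day 8 and 3 in the mean of days. It gave 0 to 2 for day 8 minus day 3 and 0 to 1 for day 8 minus day 1 of the treatment difference, 0 to 1 for PLX4720 day 8 minus day 1 and day 3 minus day 1, 2 to 4 between lines in DMSO and 1 to 2 for the treatment difference between lines. Over all probes the count called in those fits ran from 1836 to 3643 on day 1 (3326 with all arrays), from 676 to 2598 on day 3 (2283) and from 1008 to 2529 on day 8 (2350). CEACAM7 could not be tested without a DMSO day 8 array. Signal near background limits CEACAM5, CEACAM7 and the dim CEACAM1 probe.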
